A study of Mus musculus with 22 samples.

Results

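Livers of germ-free mice that had been colonised with cecal contents of Taconic mice (GF_TAC, n = 5) were compared with livers of mice kept germ-free (GF, n = 4). The comparison used 9 of the 22 liver libraries of the series and the 11694 of 23909 gene symbols that had an RPKM (a read density, normalised for gene length and for library depth) of at least 1 in 4 or more of these 9 libraries. All mice were male C57BL/6 and labelled as fasted. GF_TAC mice received cecal material of TAC mice, which are named for the vendor Taconic, and their livers were taken 4 weeks later after a 16 h fast. A second recipient group, GF_JAX (n = 5), was treated alike with material of Jackson mice (JAX) and is used here only beside the GF_TAC values. For GF mice the labels give neither the hours of the fast nor a mock inoculation, so colonisation, the inoculation itself and the length of the fast cannot be told apart. Age, cages, the number of donor mice and whether each library came from its own animal are not given in the labels, and p-values therefore reflect only how these libraries vary, some of which may be technical.

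Microbial products and microbially modified bile acids reach the liver through the portal vein and through the bile acid cycle between gut and liver. Germ-free rodents are known for an altered bile acid pool, in mice rich in taurine conjugates, and for altered expression of drug-metabolising enzymes. During a fast the liver turns from sugar use and lipid synthesis to gluconeogenesis, amino acid breakdown and fatty acid oxidation.

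Sequencing depth, read from the steps of the lowest RPKM values, was 2050000 to 2980000 counted reads in GF_TAC (median 2650000) and 1360000 to 3430000 counted reads in GF (median 2150000), rounded, with GF 4 the shallowest and GF 2 the deepest. The mean depths, 2500000 ± 390000 reads in GF_TAC and 2270000 ± 860000 reads in GF (SD), differed by less than the spread between libraries (two-sided exact permutation test, p = 0.619, where 5 against 4 libraries can reach 0.0159). Pearson r of the log2 values across genes was 0.965 to 0.983 within groups and 0.960 to 0.977 between them. Each pair of libraries differed by more than counting noise, with a chi-square that was 1.89 times its degrees of freedom or more across 7472 genes. The first principal component held 24.8% of the variance and set all 4 GF libraries (12.8 to 24.4) apart from 4 of the 5 GF_TAC libraries (-25.8 to -16.6), while GF_TAC 3 (7.07) lay beside GF. All 8 hepatocyte markers were detected, as the tissue label asks, and albumin (Alb) measured 618 to 871 RPKM in GF_TAC and 541 to 1303 RPKM in GF. Alb held 1778 to 1856 reads per kilobase and the apolipoprotein gene Apoa1 1795 to 1852 in each of the 9 libraries despite the range of depth, so their RPKM were lower in deeper libraries.

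Few genes passed the test. The differences that stood out most firmly were a higher level of Csad, a taurine synthesis enzyme, a higher level of Fam89a and a lower level of Fam134b, the endoplasmic reticulum autophagy receptor also called Retreg1. In all, 24 genes (0.205% of those tested) passed an adjusted p of 0.05 (limma on log2(RPKM + 1), two-sided, Benjamini-Hochberg over all 11694 genes), 17 higher (0.145%) and 7 lower (0.0599%) in GF_TAC. At an unadjusted p under 0.05 there were 1281 genes (11%), 722 higher and 559 lower, and the libraries of both groups did not overlap for 456 genes (3.9%), 264 with GF_TAC above (2.26%) and 192 with GF_TAC below (1.64%). The median log2 difference of all genes was -0.01. Differences below are GF_TAC minus GF on the log2(RPKM + 1) scale with their standard error (SE), which understate the change of low genes, and means are given ± SD (n = 5 GF_TAC, n = 4 GF, n = 5 GF_JAX). The calls changed with the libraries used: 4 to 40 genes passed when 1 library was left out, with 4 without GF_TAC 1, GF_TAC 4, GF 3 or GF 4, 5 without GF_TAC 2, 6 without GF 1, 8 without GF_TAC 5, 20 without GF_TAC 3 and 40 without GF 2. Of these genes 1 without GF_TAC 5, 10 without GF_TAC 3 and 23 without GF 2 were not among the 24. Only Csad, Fam89a and Fam134b passed in all 9 of these fits.

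**Figure D1:**
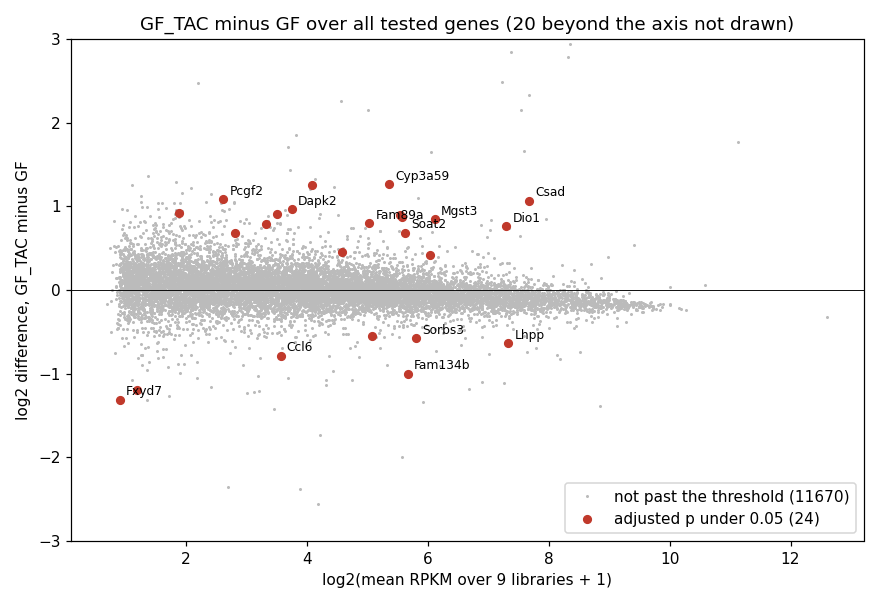
Log2 difference of GF_TAC minus GF (vertical axis, log2(RPKM + 1) scale) against the log2 of the mean RPKM over 9 libraries plus 1 (horizontal axis), 1 point per tested gene. The 24 genes past the threshold are red and part of them named. Their differences lie between -1.31 (Fxyd7) and 1.26 (Cyp3a59), and 20 genes, none of which passed, lie beyond the axis limit of 3 and are not drawn.

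Csad encodes cysteine sulfinic acid decarboxylase, which makes hypotaurine, the precursor of taurine. It measured 316, 257, 259, 266 and 229 RPKM in GF_TAC 1 to 5 and 140, 122, 111 and 133 RPKM in GF 1 to 4. Every GF_TAC library was above every GF library. The difference was 1.06 ± 0.11 (adjusted p = 0.00318), and it stayed between 0.997 and 1.11 when 1 library was left out (adjusted p of at most 0.0244). Csad was the 1 gene of 19 tested in the list of flavin monooxygenases and one-carbon metabolism that passed. Of the 19, 3 lay above 0 and 16 below, with a median of -0.15, where 48.3% of all tested genes lay above 0. Nnmt, nicotinamide N-methyltransferase (292 ± 24.6 RPKM in GF_TAC against 402 ± 58.9 RPKM in GF, adjusted p = 0.172), Dmgdh (197 ± 13.3 RPKM in GF_TAC against 240.5 ± 23.9 RPKM in GF, adjusted p = 0.290) and Cth, cystathionine gamma-lyase (287 ± 41.1 RPKM in GF_TAC against 374 ± 64.7 RPKM in GF, adjusted p = 0.363), did not pass.

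Fam89a measured 45.3, 33.6, 41.5, 38 and 38 RPKM in GF_TAC and 22.6, 21.5, 21.2 and 23 RPKM in GF, without overlap. The difference was 0.80 ± 0.09 (adjusted p = 0.00613), and 0.75 to 0.85 with 1 library left out (adjusted p of at most 0.0430). Fam134b, a receptor that delivers parts of the endoplasmic reticulum to autophagy, measured 27.9, 34.8, 36.3, 35 and 36.4 RPKM in GF_TAC and 72.1, 72.5, 60.7 and 72.2 RPKM in GF. Each GF_TAC library held less than each GF library by a margin wider than the spread within either group. The difference was -1.01 ± 0.09 (adjusted p = 0.00318), and it lay between -1.07 and -0.94 with 1 library left out (adjusted p of at most 0.0139). The call of Fam134b was lost in the fit of all 22 libraries (adjusted p = 0.0882).

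**Figure D2:**
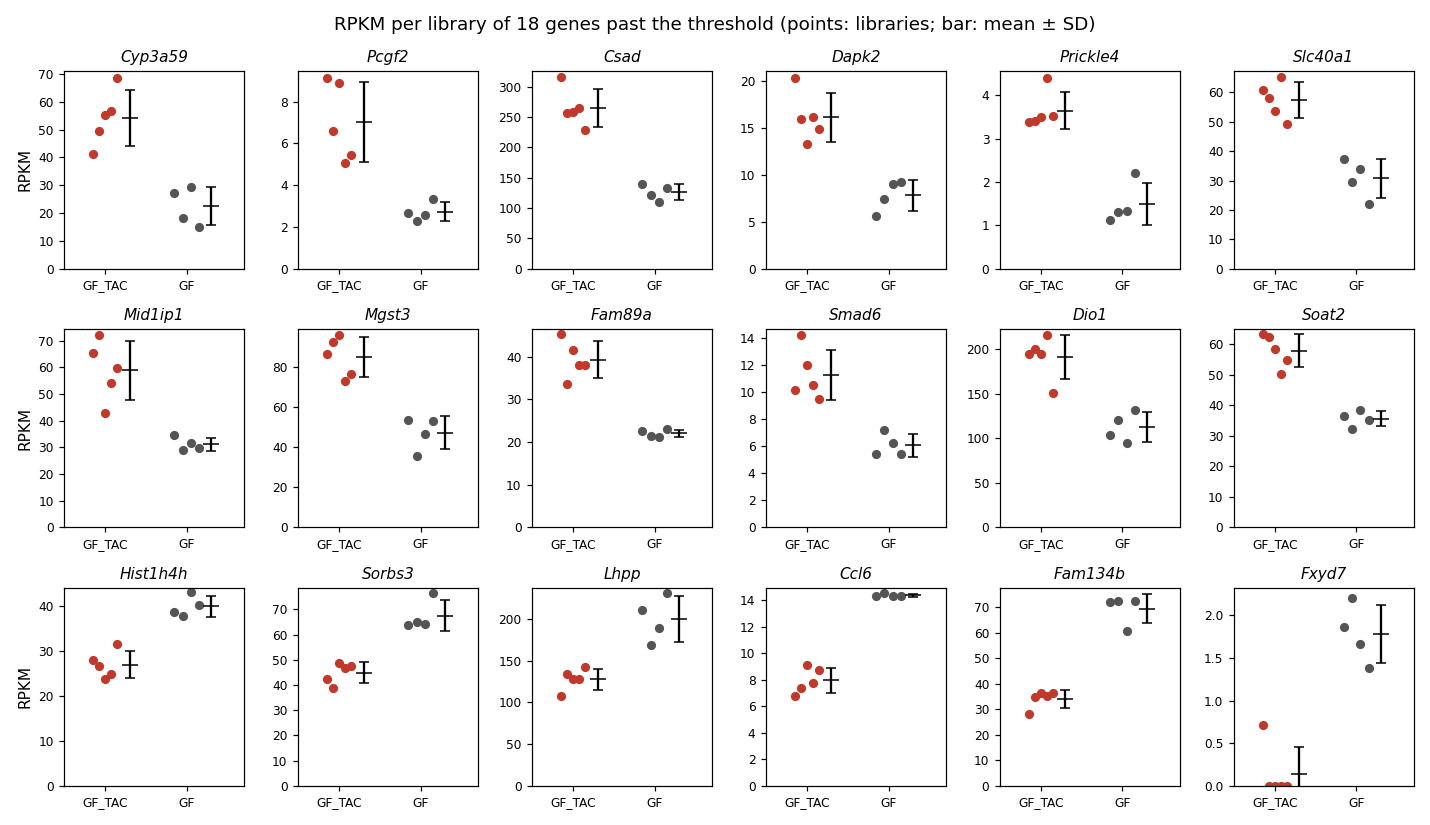
RPKM per library (points, vertical axis from 0) of 18 of the 24 genes past the threshold (12 that rose most and all 6 that fell, of those with a curated name and groups that did not overlap) in GF_TAC (red) and GF (grey), with the mean ± SD beside the points. Cyp3a59 to Soat2 were higher in GF_TAC and Hist1h4h to Fxyd7 lower.

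Csad had the smallest p among the genes that rose. Cyp3a59 had the largest log2 difference among the passing genes that rose, and Igfbp1, a fasting gene described below, just missed the threshold. Promoter sequences of Csad, Cyp3a59 and Igfbp1 are shown. Each is the 250 bases before an annotated start in RefSeq (build GRCm38.p6), 5′ to 3′ on the strand of the gene, with motif matches in capitals. These genes and motifs were chosen after the expression values had been seen.
Csad, first start, chr15:102205053-102205302, minus strand: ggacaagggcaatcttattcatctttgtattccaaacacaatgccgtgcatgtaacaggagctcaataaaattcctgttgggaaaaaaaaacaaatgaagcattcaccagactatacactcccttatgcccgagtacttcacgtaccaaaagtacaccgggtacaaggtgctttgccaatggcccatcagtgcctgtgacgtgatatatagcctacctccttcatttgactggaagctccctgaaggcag
Csad, second start, chr15:102189044-102189293, minus strand: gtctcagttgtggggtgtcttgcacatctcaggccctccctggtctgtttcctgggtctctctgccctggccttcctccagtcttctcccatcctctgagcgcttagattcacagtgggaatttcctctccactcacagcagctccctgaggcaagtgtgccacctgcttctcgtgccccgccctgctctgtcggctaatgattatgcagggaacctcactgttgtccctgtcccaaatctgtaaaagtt
Cyp3a59, chr5:146079008-146079257, plus strand: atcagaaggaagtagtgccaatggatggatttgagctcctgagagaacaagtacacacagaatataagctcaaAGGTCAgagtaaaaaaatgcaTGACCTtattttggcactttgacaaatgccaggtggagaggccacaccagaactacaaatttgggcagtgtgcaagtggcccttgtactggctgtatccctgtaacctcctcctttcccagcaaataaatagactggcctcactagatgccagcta
Igfbp1, chr11:7197537-7197786, plus strand: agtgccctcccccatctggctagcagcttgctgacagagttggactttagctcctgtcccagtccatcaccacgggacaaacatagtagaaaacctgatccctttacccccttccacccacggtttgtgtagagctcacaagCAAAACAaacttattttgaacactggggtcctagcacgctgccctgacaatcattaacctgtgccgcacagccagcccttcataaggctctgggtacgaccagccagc
The capitals in Cyp3a59 mark 2 copies of AGGTCA, the core motif of nuclear receptors such as PXR and CAR, 1 on each strand, and 14.0% of 32851 mouse promoters of this length hold at least 1 copy. The capitals in Igfbp1 mark 1 copy of CAAAACA, the core of the insulin response element, held by 5.56% of promoters. Both Csad windows had no match to these or to 4 other motifs searched on both strands, GTAAACA of FOXO factors (3.17% of promoters), the E-box CACGTG (6.02%), TGACNNNGC of the antioxidant response (10.2%) and the palindrome GGCGCC (9.59%). The matches shown do not overlap each other. Of the 24 passing genes 13 had a promoter among those searched, with 17 promoters in all. At least 1 of the 6 motifs lay in any promoter of 7 of these genes, and in 39.9% of the 32851 promoters. The first is counted per gene and the second per promoter, and a gene with more starts had more windows that could match. A match describes the letters in the window and shows neither a bound site nor a cause.

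Cyp3a59 is a cytochrome P450 of the Cyp3a family, whose members oxidise drugs, steroids and bile acids. Among the passing genes it showed the largest increase on the log2(RPKM + 1) scale. It measured 41.3, 49.5, 55.1, 56.7 and 68.4 RPKM in GF_TAC and 27.3, 18.4, 29.3 and 14.9 RPKM in GF. No GF_TAC library overlapped with GF and the difference was 1.26 ± 0.19 (adjusted p = 0.0333), but it failed the threshold, at 0.0501 to 0.0845, whichever of the 9 libraries was left out. It was the 1 of 32 tested genes of the drug metabolism list that passed, 16 members lay above 0 and 16 below, and the list median of -0.01 equalled that of all genes. Cyp3a11, the major Cyp3a enzyme of mouse liver (562 ± 76.9 RPKM in GF_TAC against 435 ± 104 RPKM in GF, adjusted p = 0.459), Cyp3a44 (1.93 ± 1.26 RPKM in GF_TAC against 0.155 ± 0.112 RPKM in GF, adjusted p = 0.112), the glucuronosyltransferase Ugt2b35 (107 ± 3.83 RPKM in GF_TAC against 85.4 ± 6.04 RPKM in GF, adjusted p = 0.112) and Cyp2b10, the classical CAR target (241 ± 81.0 RPKM in GF_TAC against 234 ± 82.8 RPKM in GF, adjusted p = 0.961), did not pass. Cyp3a44 reached 1 RPKM in no GF library and so entered the test only through GF_TAC, the group in which it was high. Reads of near-identical Cyp3a or Cyp2b genes may have been split between copies, so their values are uncertain. Mgst3, a microsomal glutathione S-transferase, measured 86.9, 92.6, 96.1, 73.1 and 76.9 RPKM in GF_TAC and 53.5, 35.8, 46.7 and 53.4 RPKM in GF, without overlap. Its difference of 0.84 ± 0.13 (adjusted p = 0.0333) passed in 1 fit with a library left out, that without GF 2, and reached an adjusted p of 0.101 in another.

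Among targets of NRF2, the regulator of antioxidant genes, none of 17 tested genes passed, 13 lay above 0 and 4 below, and the median was 0.16, or 0.32 without both GF_TAC 2 and GF_TAC 5. Nfe2l2, the gene of NRF2 itself, measured 40.5, 39.3, 32.6, 36.0 and 40.5 RPKM in GF_TAC and 30.3, 28.3, 29.4 and 24.2 RPKM in GF (difference 0.42 ± 0.09, adjusted p = 0.114), without overlap. Gclc, the catalytic subunit of glutathione synthesis, measured 127 ± 15.3 RPKM in GF_TAC and 93.8 ± 12.8 RPKM in GF (adjusted p = 0.172). None of 8 tested targets of the aryl hydrocarbon receptor passed, with Cyp1a2 at a difference of -0.08.

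Among genes of cholesterol and fat handling, Soat2 and Mid1ip1 rose. Soat2, which esterifies cholesterol in liver and intestine, measured 63.4, 62.6, 58.3, 50.4 and 54.9 RPKM in GF_TAC and 36.6, 32.3, 38.3 and 35.3 RPKM in GF. The groups were well separated, with a difference of 0.68 ± 0.09 (adjusted p = 0.0155), and the call was lost without GF_TAC 1 or without GF 4, with adjusted p of up to 0.0535. Mid1ip1, an activator of acetyl-CoA carboxylase in fatty acid synthesis, measured 65.2, 72.1, 42.8, 54.2 and 59.9 RPKM in GF_TAC and 34.5, 28.9, 31.5 and 29.9 RPKM in GF. GF_TAC was again above GF throughout, by 0.88 ± 0.13 (adjusted p = 0.0333), and the call held without GF_TAC 3 or GF 2 but with none of the other 7 left out (up to 0.101). None of the 16 tested genes of fatty acid synthesis passed (8 above 0, 8 below, median 0.01), and none of 23 of cholesterol synthesis (6 above, 17 below, median -0.18). Fasn, fatty acid synthase (35.6 ± 5.37 RPKM in GF_TAC against 30.1 ± 3.02 RPKM in GF, adjusted p = 0.516), and Srebf1, its transcriptional activator (55.2 ± 14.9 RPKM in GF_TAC against 39.2 ± 8.37 RPKM in GF, adjusted p = 0.363), were among the members that did not pass.

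Lpl, lipoprotein lipase, which adult liver normally holds at a low level, measured 13.8, 9.16, 9.17, 15.4 and 13.5 RPKM in GF_TAC and 29.97, 15.6, 33.3 and 30.4 RPKM in GF. All GF_TAC libraries were below all GF libraries, but GF 2 lay just above them. The difference of -1.07 ± 0.22 did not pass (adjusted p = 0.0960). With 1 library left out it passed only without GF 2 (0.0249), and it passed in 1 of 11 other processing settings. Lpin1, a phosphatidate phosphatase induced by fasting, measured 53.8 ± 14.9 RPKM in GF_TAC and 88.0 ± 13.7 RPKM in GF (adjusted p = 0.149). In the list of apolipoproteins and lipid export none of 23 genes passed, 5 lay above 0 and 18 below, with a median of -0.17, which was -0.01 with depth as a covariate.

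Dio1, the type 1 deiodinase that converts thyroxine into the active thyroid hormone and is itself a thyroid hormone target in liver, rose. It measured 195, 200, 194, 216 and 151 RPKM in GF_TAC and 104, 120, 94.5 and 132 RPKM in GF. All GF_TAC libraries were above all GF libraries, by 0.76 ± 0.12 (adjusted p = 0.0407), and the call held without GF_TAC 5 or GF 2 and was lost without each of the other 7 libraries (up to 0.116).

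Slc40a1, ferroportin, the exporter of cellular iron and also a marker of Kupffer cells, measured 61.0, 58.1, 53.8, 65.2 and 49.1 RPKM in GF_TAC and 37.4, 29.5, 34 and 21.98 RPKM in GF. The groups did not overlap and the difference was 0.90 ± 0.14 (adjusted p = 0.0340); with 1 library left out it passed only without GF 1 and reached 0.106. It was the 1 passing gene of 16 in each of the iron handling and Kupffer lists, and 5 members of each lay above 0 and 11 below (medians -0.05 and -0.19, the second 0.02 without both GF_TAC 2 and GF_TAC 5). Summed RPKM of the Kupffer list were 374 to 563 in GF_TAC and 412 to 560.1 in GF, and the defining Kupffer marker Clec4f measured 35 ± 8.03 RPKM in GF_TAC and 40.2 ± 4.50 RPKM in GF. In bulk liver a difference in the number of cells of a type and a difference in RNA per cell cannot be told apart.

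Smad6, an inhibitory Smad that is induced by and restrains bone morphogenetic protein (BMP) signalling, measured 10.2, 14.2, 12, 10.5 and 9.51 RPKM in GF_TAC and 5.41, 7.22, 6.23 and 5.42 RPKM in GF. The groups did not overlap, and the difference of 0.79 ± 0.13 (adjusted p = 0.0469) passed without GF 2 alone among the fits with 1 library left out (up to 0.157). Of the iron list's BMP genes Id1, a BMP target, measured 75.9, 116, 52.5, 90.8 and 37.0 RPKM in GF_TAC and 32.1, 18.9, 42.6 and 39.5 RPKM in GF (difference 1.09 ± 0.32, adjusted p = 0.242). Smad7, a second inhibitory Smad, measured 15.3 ± 6.97 RPKM in GF_TAC and 7.24 ± 1.05 RPKM in GF (adjusted p = 0.249). Bmp6, the ligand that controls hepcidin, measured 3.98 ± 0.521 RPKM in GF_TAC and 2.61 ± 0.811 RPKM in GF (adjusted p = 0.326). Id1, Smad7 and Bmp6, named after their values were seen, did not pass, and their libraries overlapped. Hamp, the gene of the iron hormone hepcidin, showed a difference of 0.03 ± 0.19 (adjusted p = 0.961). It averaged 1033 ± 156 RPKM in GF_TAC and 1016 ± 210 RPKM in GF. That is as high as Alb, whose reads per kilobase hardly varied between libraries. Whether a change in so abundant a gene could be seen was not tested. The near copy Hamp2 measured 218 ± 44.3 RPKM in GF_TAC and 303 ± 81.6 RPKM in GF (adjusted p = 0.404).

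The other genes that rose had no list in common. Pcgf2, a Polycomb group protein, measured 9.13, 6.58, 8.91, 5.06 and 5.44 RPKM in GF_TAC and 2.67, 2.30, 2.59 and 3.35 RPKM in GF (1.08 ± 0.18, adjusted p = 0.0435). Dapk2, a calcium-dependent kinase linked to cell death and autophagy, measured 20.3, 15.9, 13.3, 16.1 and 14.9 RPKM in GF_TAC and 5.63, 7.47, 9.02 and 9.18 RPKM in GF (0.96 ± 0.15, adjusted p = 0.0382). Prickle4, of the Prickle family of LIM proteins, measured 3.39, 3.40, 3.50, 4.39 and 3.53 RPKM in GF_TAC and 1.11, 1.31, 1.32 and 2.20 RPKM in GF (0.91 ± 0.15, adjusted p = 0.0435). In each of the 3 every GF_TAC library was above every GF library, but with 1 library left out Pcgf2 never passed, Dapk2 passed only without GF_TAC 3 and Prickle4 only without GF 4. The highest adjusted p in these fits was 0.118. Another 5 genes are named after their values were seen. Notum, which removes the lipid from Wnt proteins (72.6 ± 2.80 RPKM in GF_TAC against 54.4 ± 3.62 RPKM in GF, adjusted p = 0.0435), Mta3, a subunit of the NuRD chromatin complex (26.0 ± 1.47 RPKM in GF_TAC against 18.7 ± 1.12 RPKM in GF, adjusted p = 0.0460), and Arhgap24, a GTPase-activating protein (7.38 ± 0.316 RPKM in GF_TAC against 4.23 ± 0.179 RPKM in GF, adjusted p = 0.0333), passed, and with 1 library left out did so only without GF 2. The clone-named transcripts 9130409I23Rik (21.7 ± 4.58 RPKM in GF_TAC against 8.59 ± 2.54 RPKM in GF, adjusted p = 0.0333) and E330011O21Rik (13.2 ± 0.591 RPKM in GF_TAC against 6.74 ± 1.78 RPKM in GF, adjusted p = 0.0435) passed in 4 and 0 of the 9 fits, the first without GF_TAC 2, GF_TAC 3, GF 1 or GF 2.

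In all 7 genes fell, Fam134b among them. Ccl6, a chemokine made by macrophages and neutrophils, measured 6.80, 7.37, 9.11, 7.77 and 8.75 RPKM in GF_TAC and 14.3, 14.6, 14.3 and 14.3 RPKM in GF. The GF libraries were almost equal and all above GF_TAC; the difference was -0.79 ± 0.10 (adjusted p = 0.0182), kept without GF_TAC 3, GF_TAC 5 or GF 2 and lost without the other 6 (up to 0.0637). Lhpp, a histidine phosphatase, measured 107, 133, 128, 127 and 142 RPKM in GF_TAC and 210, 168, 189 and 231 RPKM in GF (-0.64 ± 0.11, adjusted p = 0.0476). Sorbs3, the adhesion adaptor vinexin, measured 42.5, 38.8, 48.7, 46.7 and 47.6 RPKM in GF_TAC and 64.0, 64.9, 64.1 and 76.7 RPKM in GF (-0.58 ± 0.09, adjusted p = 0.0333). Hist1h4h, a histone H4 gene with near-identical copies and therefore uncertain, measured 28.0, 26.6, 23.7, 24.8 and 31.6 RPKM in GF_TAC and 38.7, 37.7, 43.1 and 40.2 RPKM in GF (-0.56 ± 0.09, adjusted p = 0.0407). None of the 3 had overlapping groups, and with 1 library left out each passed without GF 2, Sorbs3 also without GF_TAC 3, Hist1h4h also without GF_TAC 5, and none in any other fit (up to 0.139). Across 11 other processing settings Lhpp, Sorbs3 and Hist1h4h each kept the call in 6, with adjusted p of up to 0.103 for Lhpp, 0.330 for Sorbs3 and 0.602 for Hist1h4h.

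Both remaining decreases rest on few reads. Fxyd7, of the FXYD family of sodium pump regulators, was listed at 0.711 RPKM in GF_TAC 1 and at 0 in the other 4 GF_TAC libraries, against 1.87, 2.21, 1.66 and 1.39 RPKM in GF (-1.31 ± 0.20, adjusted p = 0.0333). At 0 to 7.57 reads per kilobase, with 1 library left out, its call held only without GF_TAC 1 (up to 0.0918). BC033916, a clone-named transcript described after its values were seen, measured 0.461 ± 0.267 RPKM in GF_TAC and 2.31 ± 0.429 RPKM in GF (-1.19 ± 0.18, adjusted p = 0.0333). With 1 library left out its call held only without GF_TAC 3 or GF 2 (up to 0.101). Both genes reached 1 RPKM in the 4 GF libraries alone, so they entered the test only through the group in which they were high.

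Genes of gluconeogenesis and fasting lay below 0 throughout, but none passed. All 14 tested members had a lower mean log2 value in GF_TAC, with a median of -0.22, against -0.01 over all genes. An unadjusted p under 0.05 was reached by 6 of the 14, and by 559 lower genes among all 11694 tested. Many of these genes are abundant, and abundant genes as a whole lay lower: the median was 0.06 for 4923 genes under 10 RPKM, -0.02 for 5186 genes of 10 to 100 RPKM, -0.10 for 1125 genes of 100 to 300 RPKM and -0.16 for 460 genes above 300 RPKM. Most abundant genes lay below 0, with 909 of the 1125 and 431 of the 460. Igfbp1, an insulin-repressed hepatic protein that rises on fasting, measured 229, 243, 244, 193 and 170 RPKM in GF_TAC and 436, 321, 333 and 445 RPKM in GF. GF_TAC was below GF in every library, yet the difference of -0.82 ± 0.14 just missed the threshold (adjusted p = 0.0554). With 1 library left out it passed only without GF 2 (0.0481), and it passed in 4 of 11 other processing settings. Irs2, the insulin receptor substrate induced by fasting, measured 7.20, 8.28, 5.77, 3.87 and 4.86 RPKM in GF_TAC and 9.24, 14.9, 11.2 and 9.42 RPKM in GF (-0.82 ± 0.20, adjusted p = 0.148), without overlap. Ppargc1a, a coactivator of gluconeogenic genes, measured 1.96 ± 0.569 RPKM in GF_TAC and 3.24 ± 0.380 RPKM in GF (adjusted p = 0.273). The gluconeogenic enzyme Pck1 measured 511 ± 49.2 RPKM in GF_TAC and 613 ± 143 RPKM in GF (adjusted p = 0.631), with overlap.

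In the list of amino acid breakdown and urea cycle 2 of 26 tested genes lay above 0 and 24 below, with a median of -0.15 and none passing. Its members are mostly abundant, and most genes as abundant lay below 0 (909 of 1125 at 100 to 300 RPKM, 431 of 460 above 300 RPKM). Got1, the cytosolic aspartate aminotransferase, measured 138, 164, 200, 190 and 173 RPKM in GF_TAC and 326, 273, 245 and 276 RPKM in GF. The groups did not overlap, and the difference of -0.70 ± 0.12 missed the threshold narrowly (adjusted p = 0.0529, and 0.0547 to 0.141 with 1 library left out). For sugar use, where 9 of 16 genes lay above 0 and none passed, the liver pyruvate kinase Pklr measured 72.3, 77.3, 56.6, 70.9 and 62.9 RPKM in GF_TAC and 48.2, 56.1, 34.1 and 38.8 RPKM in GF (0.62 ± 0.14, adjusted p = 0.116), without overlap. Of 29 tested genes of fatty acid oxidation and PPARa targets, none passed and the median was -0.08, or 0.01 with depth as a covariate.

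**Figure D3:**
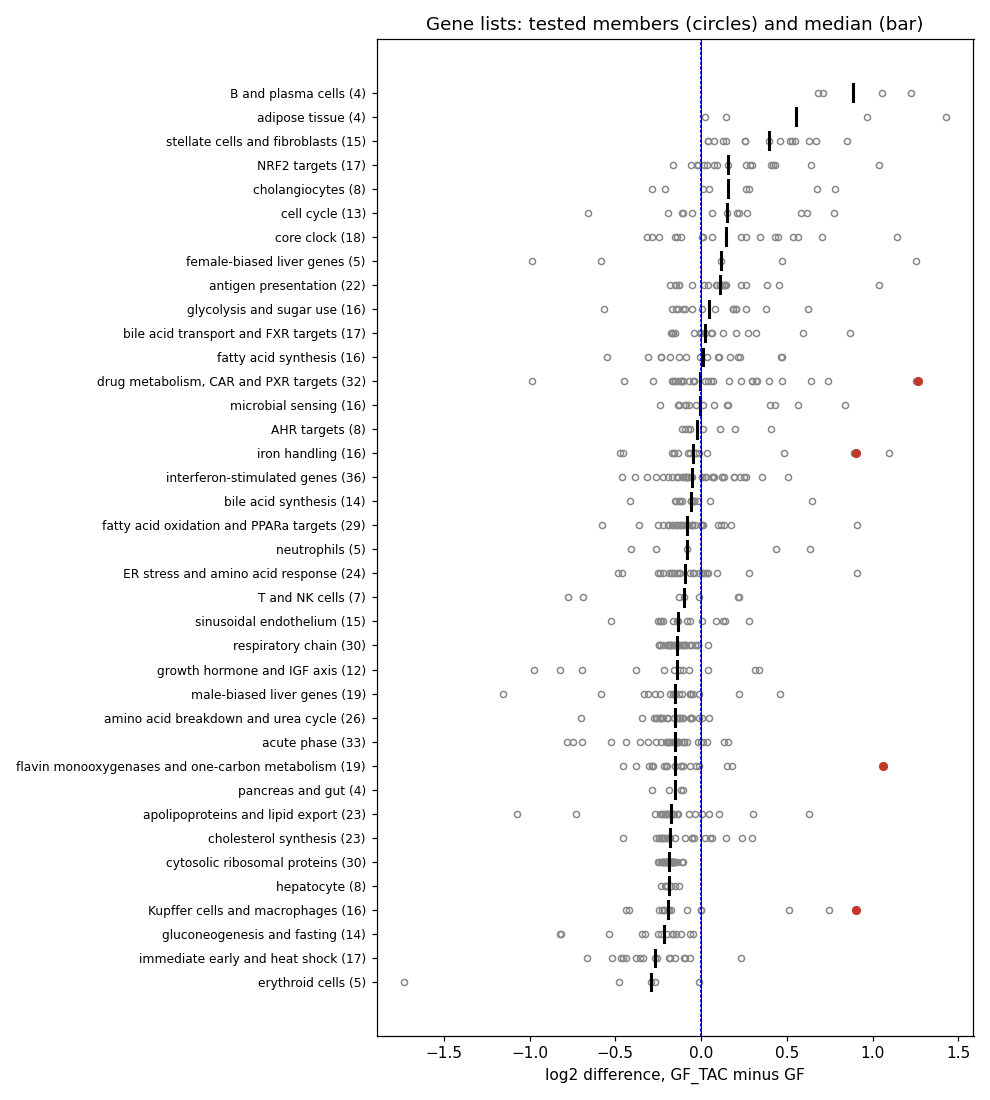
Log2 difference of GF_TAC minus GF (horizontal axis) for the tested members of 38 gene lists (circles, red where adjusted p was under 0.05), with the median of each list as a black bar and the number of tested members in brackets. The solid line marks 0 and the dashed line the median of all genes, -0.01. Wholly left of 0 lie gluconeogenesis and fasting (median -0.22), cytosolic ribosomal proteins (-0.19), hepatocyte (-0.19), erythroid (-0.29) and pancreas and gut markers (-0.15). Wholly right of 0 lie markers of stellate cells and fibroblasts (median 0.40), B and plasma cells (0.88) and adipose tissue (0.55).

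Bile acid synthesis did not differ detectably. None of 14 genes passed, 2 lay above 0 and 12 below, and the median was -0.06. Cyp7a1, the rate-limiting enzyme, measured 24.2, 16.3, 19.3, 11.9 and 31.8 RPKM in GF_TAC and 17.95, 21.2, 9.37 and 5.92 RPKM in GF, with wide overlap (0.65 ± 0.35, adjusted p = 0.537). Cyp8b1, which directs synthesis towards cholic acid, measured 346 ± 45.2 RPKM in GF_TAC and 361 ± 87.8 RPKM in GF (adjusted p = 0.939), with a sign that changed between settings. Of 17 genes of bile acid transport and FXR targets none passed, and Nr1h4, the gene of the receptor FXR, measured 122 ± 4.2 RPKM in GF_TAC and 102 ± 11.2 RPKM in GF, without overlap (adjusted p = 0.257).

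Among sensors of microbial products none of 16 tested genes passed, 8 lay above 0 and 8 below. Tlr5, the receptor of bacterial flagellin, measured 4.80, 3.59, 3.60, 3.91 and 4.69 RPKM in GF_TAC and 1.03, 2.43, 1.96 and 2.18 RPKM in GF. The groups did not overlap, but at 2.08 to 14.0 reads per kilobase the difference of 0.84 ± 0.17 did not pass (adjusted p = 0.0946). Nod1, an intracellular peptidoglycan sensor, measured 7.68 ± 0.637 RPKM in GF_TAC and 5.57 ± 0.722 RPKM in GF, without overlap (adjusted p = 0.239). Of 33 acute phase genes 5 lay above 0 and 28 below (median -0.15, none passing), and the serum amyloid Saa1, which has near-identical copies, measured 254, 458, 177, 299 and 251 RPKM in GF_TAC and 563, 379, 458 and 462 RPKM in GF, with overlap (adjusted p = 0.264). None of 36 interferon-stimulated genes (17 above 0, 19 below, median -0.05) and none of 22 antigen presentation genes (16 above, 6 below, median 0.11) passed.

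No core clock gene passed among 18 tested, of which 12 lay above 0 (median 0.15). Bhlhe40, a clock repressor, measured 45.1, 57.6, 32.2, 47.0 and 36.0 RPKM in GF_TAC and 23.1, 30.8, 21.7 and 28.7 RPKM in GF (0.70 ± 0.16, adjusted p = 0.127), without overlap. Dbp, a clock output gene, measured 2.73, 15.7, 2.25, 5.31 and 5.28 RPKM in GF_TAC and 3.29, 1.41, 1.33 and 1.33 RPKM in GF (adjusted p = 0.341), with GF_TAC 2 far above the rest. The time of day of collection is not given in the labels. Of 24 genes of endoplasmic reticulum stress and the amino acid response none passed (8 above 0, 16 below, median -0.09), and the chaperone Hspa5 measured 244 ± 19.5 RPKM in GF_TAC and 268 ± 27.2 RPKM in GF (adjusted p = 0.666). Heat shock and immediate early genes, which also respond to the handling of tissue, lay below 0 in 16 of 17 cases with none passing (median -0.27, and -0.15 without both GF_TAC 2 and GF_TAC 5). Hsph1, a large heat shock protein, measured 26.7, 21.1, 17.5, 18.8 and 20.3 RPKM in GF_TAC and 26.3, 39.4, 36.5 and 32.9 RPKM in GF (-0.67 ± 0.14, adjusted p = 0.0946).

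Lists of abundant housekeeping genes lay slightly below 0. All 30 cytosolic ribosomal protein genes had negative differences (median -0.19), as had 29 of 30 respiratory chain genes (median -0.14) and all 8 hepatocyte markers (median -0.19), with none passing. With depth as a covariate these medians were -0.06, -0.03 and -0.01, and that of the gluconeogenesis list was -0.17. The part of depth in any of these differences was not tested.

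Markers of other cells were uneven between GF_TAC libraries. All 15 tested markers of stellate cells and fibroblasts lay above 0 (median 0.40, or 0.29 without both GF_TAC 2 and GF_TAC 5). None passed, and 6 had an unadjusted p under 0.05, against 722 higher genes among all 11694 tested. Summed RPKM over the 16 markers of that list were 316 to 395 in GF_TAC and 284 to 372 in GF. Col1a1, the main fibrillar collagen, measured 5.5, 4.11, 4.89, 3.86 and 5.78 RPKM in GF_TAC and 1.96, 3.29, 2.18 and 3.34 RPKM in GF (0.67, adjusted p = 0.152), without overlap. Acta2, smooth muscle actin, measured 3.67, 9.07, 5.61, 2.75 and 27.7 RPKM in GF_TAC and 3.53, 3.95, 2.81 and 3.58 RPKM in GF, so that GF_TAC 5 stood alone. Adipose markers appeared in GF_TAC 2 and GF_TAC 5: adiponectin, Adipoq, measured 5.89 and 4.37 RPKM there and was listed at 0 in the other 3 GF_TAC and all 4 GF libraries, and the lipid droplet protein Plin1 measured 3.25 and 1.99 RPKM there, 0.202 RPKM in GF_TAC 1 and 0 elsewhere. B cell and plasma cell markers were highest in the same libraries. Cd79a, a part of the B cell receptor, measured 4.48, 10.5, 3.70, 1.55 and 8.27 RPKM in GF_TAC and 3.14, 0.926, 1.40 and 2.33 RPKM in GF (adjusted p = 0.354). Summed RPKM over the 9 markers of that list with values were 6.64 to 43.5 in GF_TAC and 4.54 to 9.52 in GF. Of these, 4 were tested, with a median difference of 0.88, and 0.35 without GF_TAC 2 and GF_TAC 5. Summed adipose markers, of which 4 of 8 were tested and Car3 and Fabp4 are also high in liver, were 495 to 688 RPKM in GF_TAC and 438 to 666 RPKM in GF. Without both libraries 5 genes passed, of which Csad (1.14, adjusted p = 0.00837), Fam89a (0.88, adjusted p = 0.00837) and Fam134b (-1.05, adjusted p = 0.00899) were shared with the 24.

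**Figure D4:**
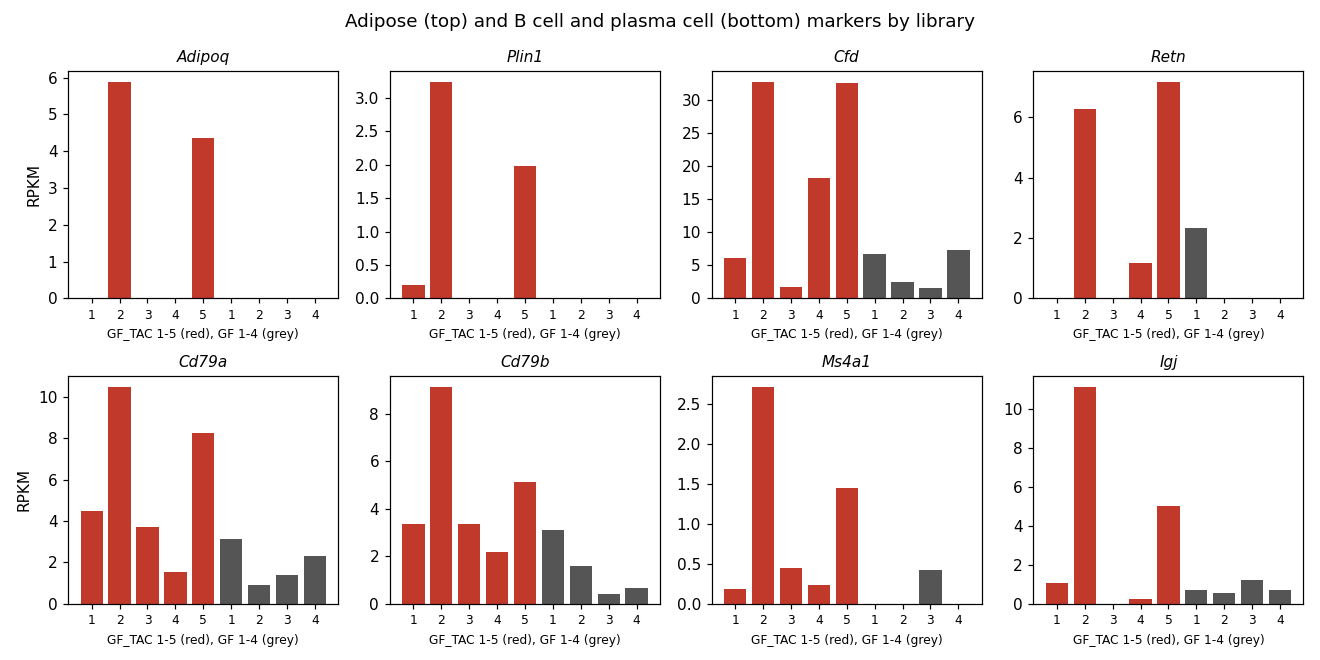
RPKM (vertical axes, bars from 0) of 4 adipose markers (top) and 4 B cell and plasma cell markers (bottom) in GF_TAC 1 to 5 (red) and GF 1 to 4 (grey). GF_TAC 2 and GF_TAC 5 hold the tallest bars of each marker, with Adipoq at 5.89 and 4.37 RPKM and at 0 in all other libraries.

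GF_JAX livers allow the Taconic recipients to be set beside recipients of another microbiota. Both colonisation comparisons share the 4 GF libraries, so their values are given side by side without a measure of likeness. At an adjusted p under 0.05 in the fit of all 22 libraries, 79 genes (0.676%) differed for GF_JAX minus GF. Csad averaged 265 ± 31.7 RPKM in GF_TAC, 240 ± 61.8 RPKM in GF_JAX and 126 ± 12.8 RPKM in GF, with adjusted p = 0.0107 for GF_JAX minus GF. Dio1 averaged 191 ± 24.4 RPKM in GF_TAC, 222 ± 42.7 RPKM in GF_JAX and 112 ± 16.6 RPKM in GF (adjusted p = 0.00142 for GF_JAX minus GF). For both genes the recipients were on the same side of GF, and the difference of GF_TAC minus GF_JAX was 0.17 for Csad (adjusted p = 0.601) and -0.21 for Dio1 (adjusted p = 0.438). Fam134b averaged 34.1 ± 3.53 RPKM in GF_TAC, 41.7 ± 16.7 RPKM in GF_JAX and 69.4 ± 5.79 RPKM in GF (adjusted p = 0.0918 for GF_JAX minus GF), and GF_JAX spread more widely than either other group. In the same fit of all 22 libraries GF_TAC minus GF did not pass for Fam134b either (adjusted p = 0.0882). Its difference of GF_TAC minus GF_JAX was -0.19 (adjusted p = 0.719). Lhpp averaged 128 ± 12.9 RPKM in GF_TAC, 125 ± 19.2 RPKM in GF_JAX and 199.8 ± 27.0 RPKM in GF (adjusted p = 0.0107 for GF_JAX minus GF). GF_JAX 1 and GF_JAX 4 stood apart from the other recipient libraries in a less steep dependence of RPKM on transcript length (log2 slopes of -0.473 and -0.442, against -0.800 to -0.664 in the other 8).

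The direct test of GF_TAC minus GF_JAX passed for 21 genes (0.18%), 3 of them among the named genes. Soat2 averaged 57.9 ± 5.41 RPKM in GF_TAC, 41.3 ± 1.58 RPKM in GF_JAX and 35.6 ± 2.55 RPKM in GF, and GF_JAX held 43.1, 39.8, 40.6, 40.3 and 43.0 RPKM, all below the lowest GF_TAC library at 50.4 RPKM. The difference between recipients was 0.47 (adjusted p = 0.0391), and 0.48 without GF_JAX 1 and GF_JAX 4, where it no longer passed (adjusted p = 0.0796). The clone-named 9130409I23Rik averaged 21.7 ± 4.58 RPKM in GF_TAC, 10.8 ± 2.73 RPKM in GF_JAX and 8.59 ± 2.54 RPKM in GF (0.95 between recipients, adjusted p = 0.0310, and 0.87 at 0.0687 without GF_JAX 1 and GF_JAX 4). With 1 recipient library left out, Soat2 passed in 3 of 10 fits (lost without GF_JAX 1, GF_JAX 3, GF_JAX 4, GF_TAC 1, GF_TAC 2, GF_TAC 3 or GF_TAC 5) and 9130409I23Rik in 4 of 10 (lost without GF_JAX 3, GF_JAX 4, GF_TAC 1, GF_TAC 3, GF_TAC 4 or GF_TAC 5). Hspa5, the main chaperone of the endoplasmic reticulum, averaged 244 ± 19.5 RPKM in GF_TAC, 396 ± 51.6 RPKM in GF_JAX and 268 ± 27.2 RPKM in GF. Its difference between recipients, -0.69 (adjusted p = 0.00193), passed in all 10 fits with 1 recipient library left out and was -0.71 without GF_JAX 1 and GF_JAX 4 (adjusted p = 0.00402). Prickle4 (3.64 ± 0.426 RPKM in GF_TAC, 1.53 ± 0.639 RPKM in GF_JAX, 1.49 ± 0.486 RPKM in GF) and Mgst3 (85.1 ± 9.88 RPKM in GF_TAC, 51.6 ± 17.8 RPKM in GF_JAX, 47.4 ± 8.33 RPKM in GF) were not shown to differ between recipients (0.91, adjusted p = 0.0753, and 0.77, adjusted p = 0.104). With 1 recipient library left out, Prickle4 passed only without GF_JAX 2 or GF_JAX 5 (0.0324 at the lowest) and Mgst3 only without GF_JAX 3 or GF_JAX 5 (0.0457).

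**Figure D5:**
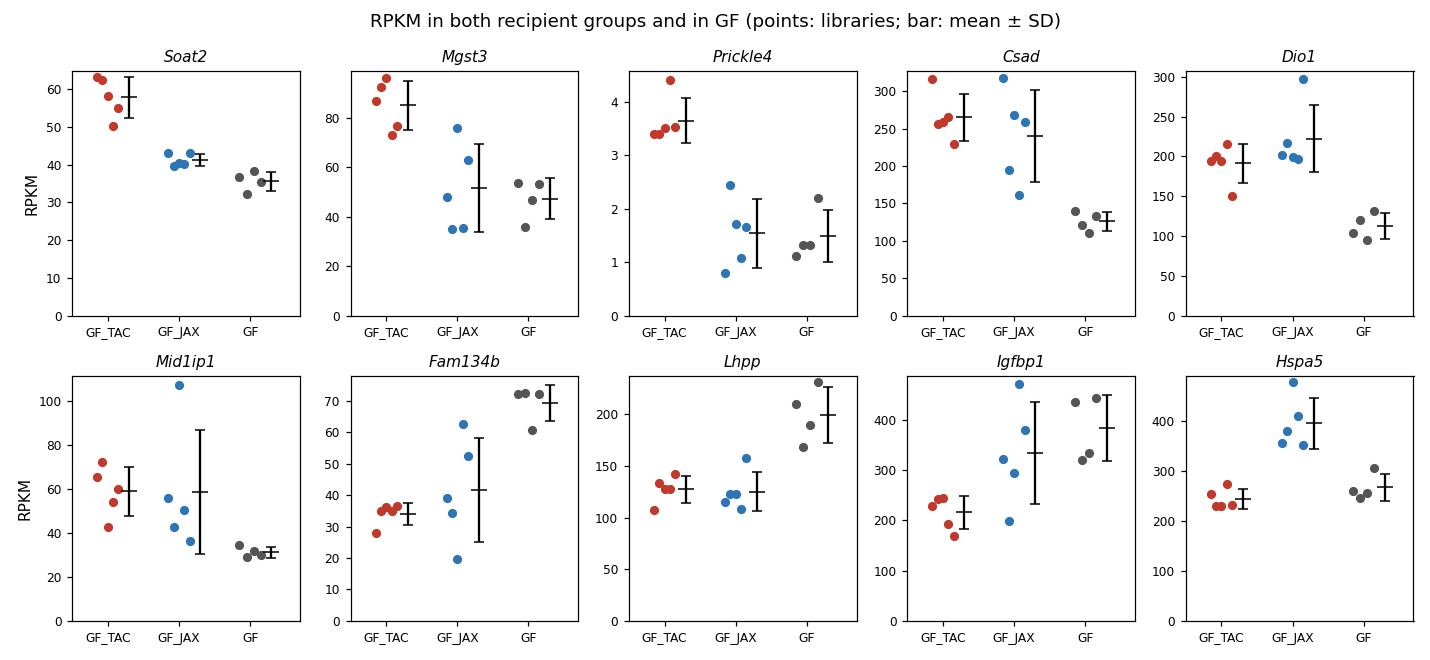
RPKM per library (points, vertical axis from 0) of 10 genes in GF_TAC (red, n = 5), GF_JAX (blue, n = 5) and GF (grey, n = 4), with the mean ± SD beside the points. Soat2 in GF_JAX lies between 39.8 and 43.1 RPKM, below all GF_TAC libraries, while for Csad, Dio1 and Lhpp both recipient groups lie on the same side of GF.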

How the data were processed

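Poly(A) RNA of mouse liver was sequenced (Trizol extraction, NEBNext poly(A) capture and a ThruPLEX library kit, per the labels' protocols). The authors deposited 1 table of RPKM per gene and library. The submitters' processing notes name the build mm9 and the tools Cuffdiff 2.1.1 and Bowtie 1.0.0. What each tool did, which annotation and filters were used and whether libraries were scaled to each other is not given in the sources used here. Of 24397 entries, 461 empty ones and 27 whose names had become dates were left out, and 7283 of the 23909 symbols were listed at 0 in all 9 libraries. A count test was not run, since the table holds no read counts.

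Values were analysed as log2(RPKM + 1) with limma 3.58.1 (trend) in R 4.3.3, fitted on GF_TAC and GF only, keeping genes that reached 1 RPKM in 4 or more of the 9 libraries. GF_TAC minus GF_JAX was tested on the same genes in a fit of all 22 libraries and 5 groups. All p-values are two-sided and were adjusted over the 11694 genes by the Benjamini-Hochberg method, with a threshold of 0.05. The fit was tested on simulated data. Depth came from RPKM steps of 1 read: 87.2% of 5147 low genes were whole multiples within 0.02 reads, scaled by transcript lengths of GENCODE M21, which matched 99.2% of tested genes and belongs to another build. Groups of single values were compared by exact permutation. Figures were drawn with matplotlib 3.10.9, and tables made with scipy 1.17.1, pandas 2.3.3 and numpy 2.4.6 in Python 3.11.15.

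Named genes were the 12 largest increases and decreases among passing genes without overlap (predicted and clone names left out), up to 6 passing members of each list, the 2 smallest p of each pathway list without a passing member, and Cyp7a1, Cyp8b1, Cyp2b10, Cyp3a11, Cyp1a2, Saa1, Hspa5, Pck1, Fasn, Fgf21 and Nnt. Passing genes outside these rules, clone names among them, were added after their values were seen. This gave 74 named genes in all, of which a part is described. Some items are not reported here. Other list members were named after their values were seen. The genes, lists and tests were chosen with earlier results of these data known. The 38 lists were described by counts and medians without a test. Alternatives covered pseudocounts, filters, scaling, depth, transcript length, weights, a replicate block and libraries left out. The correction for shared start positions, the fits without GF_TAC 2 and GF_TAC 5, and all fits without recipient libraries for GF_TAC minus GF_JAX were added after the data were seen. Of 12 motifs looked at in promoters, the 6 described were kept.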

Additional observations from a re-analysis of the deposited data

Results flagged for a closer look

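For 10 of 148 groups of libraries of the named genes, a single library was flagged by Dixon's gap criterion at its 95% level, which chance alone meets in about 1 group in 20. The criterion weighs the gap to the next library against the range of the group, so a flagged gap can be small in RPKM. In GF_TAC the highest library was GF_TAC 4 for Prickle4 (4.39 RPKM) and GF_TAC 1 for Fxyd7 (0.711 RPKM, all others at 0). The lowest GF_TAC library was GF_TAC 1 for Fam134b (27.9 RPKM) and GF_TAC 4 for BC033916 (0 RPKM). In GF the highest library was GF 2 for Ccl6 (14.6 RPKM) and for Arhgap24 (4.50 RPKM), and GF 4 for Sorbs3 (76.7 RPKM). The lowest GF library was GF 3 for Fam134b (60.7 RPKM) and GF 2 for Lpl (15.6 RPKM) and Cyp3a11 (282 RPKM). GF 2, the deepest library, is the one flagged in 4 of these 10. For Ccl6 and Arhgap24 among them the GF libraries differed little (14.3 to 14.6 RPKM and 4.11 to 4.50 RPKM).

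For 3 named genes the difference between GF_TAC and GF_JAX itself passed the test, on the log2 scale: Soat2 (0.47), 9130409I23Rik (0.95) and Hspa5 (-0.69).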

How the results depend on the processing

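Of the 24 genes passing for GF_TAC minus GF (17 higher, 7 lower), counts moved by over 1.5 times without the filter on low values (6, as 4 and 2, among 16626 genes), after scaling to a common sum (15, as 11 and 4), with depth as a covariate (12, as 9 and 3), with library quality weights (54, as 39 and 15) and without both GF_TAC 2 and GF_TAC 5 (5, as 3 and 2). Genes that fell numbered 4 with pseudocount 0.1, with a mean RPKM of at least 5 and in the fit of 22 libraries, and 11 after a correction for shared start positions. With a single library left out, 4 to 40 genes passed, 2 to 24 higher and 1 to 16 lower. For GF_TAC minus GF_JAX (21) the count was 11 without the filter, 36 after scaling to a common sum, and 5 (without GF_TAC 3) to 117 (without GF_JAX 5) with 1 recipient library left out. With the replicate number as a block 1 gene, Csad, passed (1 higher, 0 lower). The labels do not say whether the numbers pair the libraries. Same-numbered libraries correlated at 0.02, 0.12, -0.07 and 0.07 in their deviations from group means. Of the 4 numbers 2 found their own as best partner, and these values cannot settle whether libraries were paired. The cause of these shifts was not tested. Across the 11 other processing settings without a block, Csad, Fam89a and Soat2 kept the call in all 11, Fam134b in 10, and the other 20 passing genes in 4 to 9. No named gene that passed changed sign. With libraries left out this was fixed in advance, since the groups of each passing gene did not overlap. Differences near 0 did. Cyp8b1 (-0.0422) was 0.0384 after scaling to a common sum, 0.058 with depth as a covariate, 0.00285 with the start position correction, 0.0669 without both GF_TAC 2 and GF_TAC 5, and -0.128 to 0.114 with a single library left out. Cyp1a2 (-0.0778) was 0.00276 after scaling to a common sum, 0.0161 with depth as a covariate, 0.0342 without both GF_TAC 2 and GF_TAC 5, and -0.169 to 0.00136 with a single library left out. Cyp2b10 (0.0584) was -0.116 with quality weights, -0.0733 with the block, and -0.252 to 0.282 with a single library left out. Genes with few reads, such as Fxyd7 (0 to 7.57 reads per kilobase), limit what could be detected.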

Other observations

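Small nucleolar RNAs carry no poly(A) tail, and 24 entries named Snora, Snord or Scarna were tested, none of which passed. Some of them reached 1 RPKM in no GF library and so entered the test only through GF_TAC, and no count by direction is given. In GF_TAC 1 to 5 the number of these 24 entries listed at 0 was 5, 2, 13, 6 and 3, and in GF 1 to 4 it was 15, 16, 14 and 16, so that GF_TAC 3 lay near GF. Their summed RPKM were 4372, 13628, 5775, 7128 and 7670 in GF_TAC and 12300, 3442, 6166 and 2985 in GF, with overlap. Rpph1, the RNA of RNase P, measured 242, 576, 76.7, 343 and 372 RPKM in GF_TAC and 74.0, 34.9, 65.8 and 43.9 RPKM in GF (adjusted p = 0.0946), and Rmrp, the RNA of RNase MRP, 189, 433, 11.1, 268 and 317 RPKM in GF_TAC and 47.3, 24.4, 15.8 and 26.3 RPKM in GF. The first principal component also placed GF_TAC 3 (7.07) on the side of GF. The part of these RNAs in other results was not tested.

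Sult1e1, the estrogen sulfotransferase, measured 0, 4.46, 0.394, 0.412 and 2.55 RPKM in GF_TAC and 11.7, 4.93, 14.5 and 9.91 RPKM in GF (adjusted p = 0.0946). Its GF_TAC levels were highest in GF_TAC 2 and GF_TAC 5, and without both it passed (adjusted p = 0.00837). The hemoglobin gene Hbb-b1 measured 60.5 RPKM in GF_TAC 5 and under 1 RPKM in GF_TAC 1 to 4, against 0.112, 27.0, 69.8 and 1.08 RPKM in GF. These genes were chosen after their values had been seen.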
